A study of Rattus norvegicus with 16 samples.

Results

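Antibody against the vascular endothelial growth factor was compared with plain immunoglobulin in sutured rat corneas, using the 4 arrays of anti-*Vegf* treated corneas and the 4 arrays of IgG treated corneas among the 16 arrays of the series. All 8 corneas were right eyes of male albino Wistar rats of 12 to 16 weeks that carried 2 sutures at 1.5 mm from the temporal limbus, the border between the cornea and the vessel-bearing tissue around it. Each eye had received 4 drops per day for 2 days, 8 drops in all, of a goat polyclonal antibody that binds rat *Vegf* forms (anti-*Vegf*) or of normal goat IgG (IgG). The labels give 20 mg/ml for both agents and the study's methods give 20 µg/ml, and the labels name the control agent an anti-IgG antibody in one place and goat IgG in another. By the methods the tissue reached from the suture line to the limbus and left the limbal rim out, whereas the labels describe cornea free of scleral rim. The other 8 arrays, of unsutured naïve corneas and of sutured corneas given dexamethasone, entered the fit for the spread of each gene. Their means are given where they place a value. Arrays are named as in the labels, and values follow the order F1x, F2, F6, F7 for anti-*Vegf* and F17, F19, F22, F23 for IgG.

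*Vegfa* is a secreted growth factor that makes blood vessels leaky and makes their endothelial cells divide and sprout, acting through the receptor *Kdr*. The cornea normally has no vessels, and injury or inflammation can draw them in from the limbus. An antibody binds the *Vegf* protein outside cells and does not bind the *Vegfa* transcript. Wounded corneal epithelium closes a defect by migration and then by cell division near the limbus, and wounded stroma loses resident keratocytes and lays down new matrix.

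Every value is a log2 signal, so that a difference of 1 is 2-fold. *Krt12*, the keratin of the corneal epithelium, lay between 14.65 and 14.73 on all 8 arrays. Differences between anti-*Vegf* and IgG were tested with limma over all probe sets, and each of 14217 genes was read from its probe set of highest mean signal. Controls added to the RNA before labelling averaged 6.88 ± 0.12 (SD, n = 4) on the anti-*Vegf* arrays and 7.08 ± 0.27 on the IgG arrays (exact permutation test, both directions, p = 0.229). The 5′ signal of beta-actin minus its 3′ signal, which is lower in more degraded RNA, was −0.87 ± 0.25 and −0.71 ± 0.08 (exact permutation test, both directions, p = 0.257). The smallest p this test can give for 4 arrays against 4 is 0.0286. No label gives a batch.

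Not one gene passed an adjusted p of 0.05 (0 of 14217 genes, 0%), and the smallest adjusted p from limma was 0.261. At an unadjusted p under 0.05, limma found 599 genes higher (4.21%) and 343 lower (2.41%) with anti-*Vegf*, so 63.6% of these were higher. Centring the arrays on 5 reference genes turned this split to 224 higher and 1312 lower, 14.6% higher, and moved the median difference of all genes from −0.007 to −0.084. The 4 anti-*Vegf* arrays all lay above the 4 IgG arrays for 491 genes (3.45%) and all below them for 266 genes (1.87%). An ordinary linear model, array weights, cyclic loess and a fit of the 8 arrays alone also called 0 genes, with 703, 906, 524 and 675 genes higher at an unadjusted p under 0.05. The 95% interval of the difference lay within 2-fold in both directions for 98.2% of genes and within 1.5-fold for 89.8%. Only 24 genes differed by 2-fold or more between the group means, 7 higher and 17 lower with anti-*Vegf*. Among the 100 genes with the smallest p, 80 were higher, and 30 belong to the lists of mitosis and DNA replication genes described next.

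**Figure D1:**
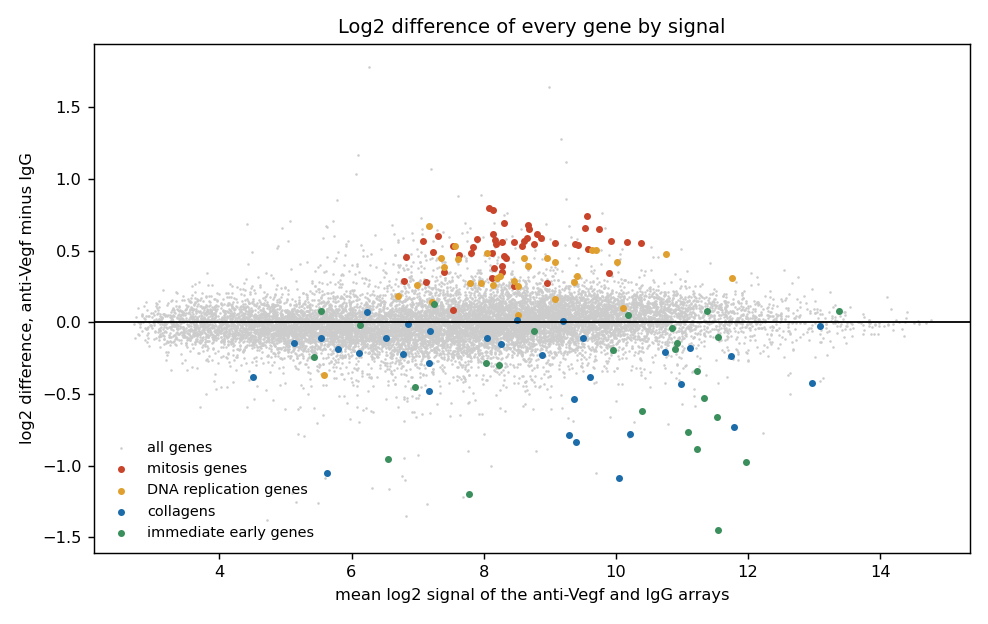
Log2 difference between anti-*Vegf* and IgG (y axis) against the mean log2 signal of the 8 arrays (x axis) for 14217 genes, with 4 gene lists coloured. The 49 mitosis genes all lie above 0, and most of the 32 collagens and 26 immediate early genes lie below it.

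Genes of cell division had higher signals with anti-*Vegf*. All 49 measured genes of mitosis had higher mean signals with anti-*Vegf* than with IgG, with a median difference of 0.55 against −0.007 over all genes. Of these, 47 were higher at an unadjusted p under 0.05 (against 4.21% of all genes) and 32 did not overlap between the groups (against 3.45% of all genes), but none passed the adjusted test. The mean log2 signal of the list was 8.81, 8.48, 8.79 and 8.67 on the anti-*Vegf* arrays and 7.93, 8.09, 8.35 and 8.32 on the IgG arrays. The lowest anti-*Vegf* array thus lay above the highest IgG array. The median difference stayed between 0.46 and 0.61 when each of the 8 arrays was left out in turn, and was 0.47 with reference gene centring.

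Naïve corneas had a mean of 8.18 for the same genes, with an SD of 0.18 over 4 arrays, close to the IgG mean of 8.17. The dexamethasone arrays had the highest mean at 8.91. DEGs were counted against naïve corneas, with 1.5-fold as the smallest change and 0.05 as the limit of the limma adjusted p. With anti-*Vegf* 18 of the 49 were DEGs above naïve corneas, where 6.82% of all genes were. With IgG 0 of 49 were, where 6.32% of all genes were, and the median difference from naïve corneas was −0.005. Both comparisons share the naïve arrays, and the difference between the 2 treatments is the one given above, which did not pass the adjusted test.

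*Ccna2* encodes cyclin A2, which drives cells through replication into mitosis. Its log2 signal was 9.98, 9.66, 10.15 and 9.96 with anti-*Vegf* and 8.93, 9.07, 9.45 and 9.33 with IgG, 1.67-fold higher (log2 difference 0.74, standard error 0.15, limma adjusted p = 0.286). The groups did not overlap, and naïve corneas averaged 8.91. *Plk4*, the kinase that starts the copying of centrioles, had 8.67, 8.15, 8.74 and 8.59 with anti-*Vegf* and 7.47, 7.75, 7.99 and 7.82 with IgG, also without overlap (difference 0.78, standard error 0.17, limma adjusted p = 0.326). *Cdk1*, the kinase that starts mitosis, had 9.36, 8.90, 9.15 and 9.04 against 8.23, 8.37, 8.68 and 8.70 (difference 0.62, standard error 0.12, limma adjusted p = 0.289). Other members with non-overlapping arrays were *Kif20b*, a motor of cell separation (difference 0.80), *Ttk*, a kinase of the spindle checkpoint (0.69), *Ccnb1*, cyclin B1 (0.68), and *Mki67*, the antigen used to count dividing cells (0.65). *Ccnf* and *Knstrn* were the members that did not reach an unadjusted p of 0.05, with differences of 0.09 and 0.31.

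Several division genes outside the list were among the genes with the smallest p. *Dsn1*, a kinetochore protein that links chromosomes to the spindle, had 7.23, 6.97, 7.24 and 7.45 with anti-*Vegf* and 6.49, 6.75, 6.78 and 6.57 with IgG (difference 0.57, standard error 0.10, limma adjusted p = 0.261). *Asf1b*, a chaperone that hands histones to newly copied DNA, had 7.99, 7.46, 7.74 and 7.88 against 7.11, 7.12, 7.36 and 7.10 (difference 0.59, standard error 0.10, limma adjusted p = 0.261). Both passed the adjusted test when anti-*Vegf* array F2 was left out, with differences of 0.66 and 0.70, and these were the only 2 genes called in that fit. Array F2 had the lowest 5′ minus 3′ signal of beta-actin among the 8 arrays, −1.19. The part of RNA quality in these calls was not tested. *Shcbp1*, which takes part in the last step of cell separation, had the largest difference among genes that were higher at an unadjusted p under 0.05 with no overlap, 0.88 (standard error 0.17, limma adjusted p = 0.281), or 0.45 on its second probe set. *Trip13* and *Ska3*, both of the mitotic machinery, differed by 0.58 and 0.56, and *Depdc1* and *Cenpk* by 0.76 and 0.75.

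Most DNA replication genes were higher at an unadjusted p under 0.05, and none passed the adjusted test. Of 31 measured genes, 24 were higher (against 4.21% of all genes), 13 were higher without overlap (against 3.45% of all genes), and 30 had a positive difference, with a median of 0.32. The mean of the list was 8.68, 8.40, 8.74 and 8.72 on the anti-*Vegf* arrays and 8.16, 8.34, 8.42 and 8.32 on the IgG arrays. Array F2 of the anti-*Vegf* group lay below IgG array F22, so the list means overlapped. *Gins1*, a subunit of the helicase that opens DNA, had 7.98, 7.69, 7.81 and 7.82 against 6.87, 7.39, 7.52 and 7.39 (difference 0.53, limma adjusted p = 0.326). *Pcna*, the clamp that holds the polymerase on DNA and the list's gene of highest signal, had 11.94, 11.76, 11.99 and 11.98 against 11.48, 11.63, 11.72 and 11.61, a small difference of 0.31 without overlap (limma adjusted p = 0.355). *Uhrf1*, which carries DNA methylation through replication, was the member with a negative difference, −0.36. Relative to naïve corneas, whose arrays both comparisons share, 14 of the 31 genes were DEGs with anti-*Vegf* (against 6.82% of all genes) and 2 with IgG (against 6.32% of all genes).

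The list of D cyclins, their kinases and the cell cycle inhibitors did not share this pattern. Its 23 measured genes had a median difference of 0.005. At an unadjusted p under 0.05, 1 gene was higher (against 4.21% of all genes) and 1 lower (against 2.41%). *Ccne1*, *Ccne2* and *E2f1* were counted with the DNA replication genes, where only *Uhrf1* had a negative difference. *Rbl1*, a relative of the retinoblastoma protein, had 9.27, 9.06, 9.06 and 9.35 against 8.70, 8.88, 8.93 and 8.77 (difference 0.37). *Ccnd2*, cyclin D2, differed by −0.36 with overlapping arrays, and *Ccnd1*, *Cdkn1a* and *Cdkn1b* differed by 0.005, 0.02 and −0.01. The 26 genes of ribosome biogenesis had a median of 0.055 with 1 gene higher (against 4.21% of all genes), *Nip7* (0.22).

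Promoters of the division genes are shown because these genes differed together and share short sequence elements. The windows are those of RefSeq on build GRCr8, from 250 bases before to 50 bases after the annotated gene start, for 42 of the 49 mitosis genes and 11700 of the measured genes. The cell cycle homology region (CHR), searched as TTTGAA on both strands, occurred in 30 of the 42 mitosis windows (71.4%) and in 12.3% of the windows of all measured genes. CCAAT, on both strands, also occurred in 30 of 42 (71.4%), against 37.3% of all. A site of the E2F factors, searched as TTTCGCGC or TTTGGCGC, occurred in 11 of 27 windows of DNA replication genes (40.7%), in 1 of 42 mitosis windows and in 1.32% of all. The CHR was present in 2 of the 27 replication windows. Stretches of 110 bases that end at the base before the gene start follow, 5′ to 3′ on the strand of the gene, with CHR matches in capitals for the first 3 and E2F matches in capitals for the last 2.
Cdk1, chr20:19265183-19265292, plus strand: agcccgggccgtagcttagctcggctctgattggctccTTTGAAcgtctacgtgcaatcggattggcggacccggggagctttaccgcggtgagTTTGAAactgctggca
Cdc20, chr5:137255800-137255909, minus strand: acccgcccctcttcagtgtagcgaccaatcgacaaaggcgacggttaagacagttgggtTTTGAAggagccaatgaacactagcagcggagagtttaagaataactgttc
Ccnb2, chr8:79981659-79981768, minus strand: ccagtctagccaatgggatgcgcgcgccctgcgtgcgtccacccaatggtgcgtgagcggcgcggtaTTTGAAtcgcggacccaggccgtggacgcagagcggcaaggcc
Gins1, chr3:160184810-160184919, plus strand: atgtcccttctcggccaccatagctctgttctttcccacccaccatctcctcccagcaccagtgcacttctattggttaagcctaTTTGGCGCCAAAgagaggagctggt
Mcm2, chr4:122918095-122918204, minus strand: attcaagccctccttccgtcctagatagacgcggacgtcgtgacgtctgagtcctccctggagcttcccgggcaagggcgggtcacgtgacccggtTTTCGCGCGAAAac

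In *Cdk1* the CHR matches begin 72 and 16 bases before the start, in *Cdc20* 51 bases and in *Ccnb2* 43 bases. CCAAT, read on either strand, occurs in each of these 3 stretches at 2 places. In *Gins1* and *Mcm2* the capitals begin 25 and 14 bases before the start and cover 2 overlapping matches, one on each strand. *Cdc20*, which activates the ubiquitin ligase that ends mitosis, differed by 0.27 between anti-*Vegf* and IgG, *Ccnb2*, cyclin B2, by 0.54 and *Mcm2*, a helicase subunit, by 0.28, each at an unadjusted p under 0.05. A match to these letters is a description of the window and was not tested for binding.

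**Figure D2:**
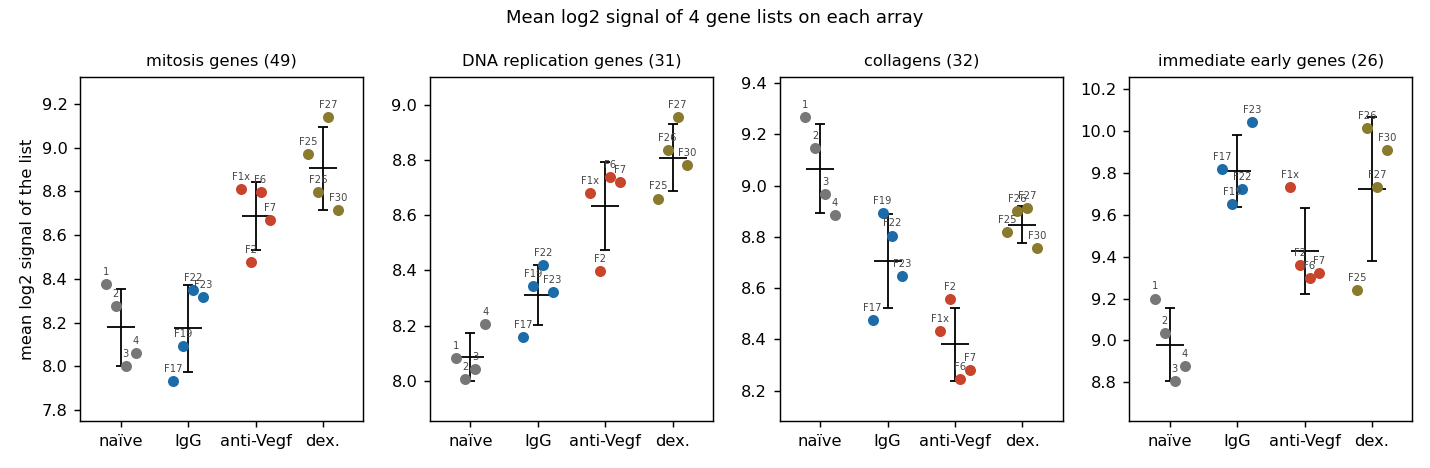
Mean log2 signal of the mitosis, DNA replication, collagen and immediate early genes (y axis, log2) on each of the 16 arrays by group (x axis), with points named by array and bars as mean ± SD (n = 4). For mitosis genes the 4 anti-*Vegf* arrays, from 8.48 to 8.81, all lie above the 4 IgG arrays, from 7.93 to 8.35.

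Immediate early genes, which cells switch on within minutes of growth factor, stretch or stress signals, were in part lower with anti-*Vegf* at an unadjusted p under 0.05, and none passed the adjusted test. Of 26 measured genes, 7 were lower (against 2.41% of all genes), 3 of them without overlap (against 1.87% of all genes), and none was higher, with a median difference of −0.26. Without anti-*Vegf* array F1x, which had the highest mean of its group for this list, 11 were lower, and without IgG array F23 the median was −0.16. *Egr1*, a transcription factor of this class, had 11.50, 10.88, 10.51 and 10.38 with anti-*Vegf* and 12.43, 11.94, 12.22 and 12.47 with IgG. The groups did not overlap, and the signal was 2.72-fold higher with IgG (log2 difference −1.45, standard error 0.48, limma adjusted p = 0.564). Naïve corneas averaged 9.98 for *Egr1* but varied widely, with 11.33, 10.18, 8.59 and 9.81 (SD 1.13). Relative to this mean, *Egr1* rose by 2.29 with IgG (limma adjusted p = 0.00222). The difference of 0.85 with anti-*Vegf* did not pass the test (limma adjusted p = 0.221). Of the 26 genes, 14 were DEGs above naïve corneas with IgG (against 6.32% of all genes) and 4 with anti-*Vegf* (against 6.82% of all genes), and these counts share the naïve arrays.

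*Nr4a1*, an orphan nuclear receptor that *Vegf* signalling is known to induce in endothelium, had 6.47, 6.14, 6.03 and 5.63 against 6.55, 6.51, 7.33 and 7.70. The highest anti-*Vegf* value lay just under the lowest IgG value (difference −0.96, standard error 0.29, limma adjusted p = 0.491). *Ier2* differed by −0.66 without overlap (11.69, 10.90, 11.01 and 11.22 against 11.98, 11.74, 11.69 and 12.05), with the highest anti-*Vegf* and the lowest IgG array equal to 2 decimals. *Dusp1*, a phosphatase that switches off MAP kinases, differed by −0.88 and by −1.28 on its second probe set, with IgG arrays F19 and F22 below anti-*Vegf* array F1x on the first. *Jun*, *Zfp36* and *Junb* differed by −0.77, −0.62 and −0.53. *Fosb* and *Fos* had large differences, −1.20 and −0.97, that did not reach an unadjusted p of 0.05. *Dusp1* also belongs to the 26 glucocorticoid response genes, of which 3 were lower (against 2.41% of all genes) and none higher (against 4.21%), with a median of −0.20. The other 2 of these were *Gpx3*, an antioxidant enzyme (−0.54), and the transcription factor *Klf9* (−0.30, with −0.41 and −0.01 on its other probe sets).

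In the promoter windows of 17 of the 26 immediate early genes, the cyclic AMP response element, searched as TGACGTCA, occurred in 4 (23.5%) against 2.85% of all measured genes. The CArG box, the site of the serum response factor, occurred in 5 (29.4%) against 1.35%.

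Some collagens and other genes of the stromal matrix were lower with anti-*Vegf* at an unadjusted p under 0.05, and none passed the adjusted test. Of 32 collagen genes, 13 were lower (against 2.41% of all genes) and 5 were lower without overlap (against 1.87% of all genes), with none higher and a median difference of −0.22. Relative to naïve corneas, the median difference of the collagens was −0.41 with IgG and −0.83 with anti-*Vegf*. With IgG 12 of 32 were DEGs below naïve corneas (against 5.02% of all genes) and with anti-*Vegf* 17 (against 5.94% of all genes). The mean of the list was 8.43, 8.56, 8.25 and 8.28 on the anti-*Vegf* arrays and 8.48, 8.89, 8.80 and 8.65 on the IgG arrays, where only IgG array F17 fell within the anti-*Vegf* range. The median difference was −0.35 without this array and −0.17 without array F19.

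*Col3a1*, a fibrillar collagen of healing tissue, had 9.05, 9.79, 9.86 and 9.31 with anti-*Vegf* and 10.43, 10.58, 10.98 and 10.39 with IgG, without overlap and 2.12-fold higher with IgG (log2 difference −1.09, standard error 0.36, limma adjusted p = 0.564). *Col1a1*, a chain of the main corneal collagen, had 11.87, 11.44, 10.90 and 11.45 against 12.13, 12.41, 12.18 and 11.87 (difference −0.73, standard error 0.19, limma adjusted p = 0.368). The ranges met at 11.87, and the second probe set differed by −0.68. *Col1a2*, its partner chain, differed by −0.43 without overlap. *Col6a1* and *Col6a2*, chains of the beaded collagen VI, differed by −0.78 and −0.83, and *Col5a1*, which sets fibril width, by −0.79. The second probe set gave −0.21 for *Col6a2* and −0.58 for *Col5a1*. For these 3 genes, on the first probe set, the groups overlapped through anti-*Vegf* array F1x alone. *Col9a1* differed by −1.05, a value carried by IgG array F19 at 7.39 and array F22 at 6.29, while the other 6 arrays lay between 4.84 and 5.64, and without array F19 the difference was −0.64.

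Other matrix lists also had negative medians. Of 41 further matrix proteins 10 were lower (against 2.41% of all genes) and 1 was higher (against 4.21%), with a median of −0.18. Of 11 small leucine-rich proteoglycans, which space collagen fibrils, 4 were lower (against 2.41% of all genes), with a median of −0.23. All 11 differences were negative, as were 7439 of 14217 over all genes. *Sparc*, a matrix glycoprotein, had 12.69, 12.48, 12.23 and 12.43 against 12.71, 12.82, 12.89 and 12.82 (difference −0.35, standard error 0.09, limma adjusted p = 0.326). Of the proteoglycans *Prelp* differed by −0.56, *Chad* by −0.44 (−0.27 without IgG array F22), *Podn* by −0.23 (−0.15 without anti-*Vegf* array F1x) and *Bgn*, biglycan, by −0.39 without overlap, whereas *Lum* and *Dcn*, lumican and decorin of the corneal stroma, differed by −0.03 and −0.08. *Mamdc2*, a matrix protein, had 7.52, 6.44, 5.31 and 5.65 against 6.95, 7.32, 7.38 and 7.54, with array F1x inside the IgG range (difference −1.07). *Spp1*, osteopontin, was the member that was higher, by 0.69.

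Keratocyte markers share genes with the collagen and other matrix lists, among them *Col8a2*, *Lum*, *Dcn*, *Ogn*, *Prelp* and *Mgp*. All 17 measured markers had negative differences (against 7439 of 14217 over all genes), 4 of them at an unadjusted p under 0.05 (against 2.41% of all genes). The median was −0.16, and the list mean was 10.21, 10.07, 9.56 and 9.78 against 9.89, 10.28, 10.27 and 10.23. The 4 were *Ptgds*, a prostaglandin synthase (−0.95, or −0.61 without IgG array F19), *Enpp2*, a lysophospholipase (−0.78), *Prelp*, and *B3gnt7*, an enzyme of keratan sulfate synthesis (−0.53, or −0.24 without anti-*Vegf* array F6, and −0.13 on its second probe set). The median was −0.08 without anti-*Vegf* array F6, which had the lowest mean, and also without array F7, and −0.10 without IgG array F22. It was −0.28 without IgG array F17 and −0.26 without anti-*Vegf* array F1x. The 21 corneal epithelium markers had a median difference of −0.002. *Epcam* (0.20) and *Cldn1* (0.36, with 0.17 and 0.40 on its other probe sets), of cell junctions, were higher (against 4.21% of all genes) and *Krt15* lower (against 2.41%). The list mean of these markers lay between 11.83 and 12.00 on the 8 arrays, with IgG array F17 at the upper end. The part that the share of stroma in a sample has in the matrix result was not tested. In whole tissue, fewer cells of a type and less RNA per cell cannot be told apart.

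*Ccn2*, connective tissue growth factor, which TGF-beta and mechanical load induce, had 9.08, 9.06, 9.16 and 9.41 with anti-*Vegf* and 9.64, 10.06, 11.14 and 10.06 with IgG. The groups did not overlap (log2 difference −1.05, standard error 0.28, limma adjusted p = 0.368), and without IgG array F22 the difference was −0.75. Relative to naïve corneas, with a mean of 10.71, *Ccn2* fell by 1.53 with anti-*Vegf* (limma adjusted p = 7.07e-04) and the difference of −0.48 with IgG did not pass the test (limma adjusted p = 0.224). Of 31 genes that respond to YAP or TGF-beta signals, 4 were lower (against 2.41% of all genes) and none higher (against 4.21%), with a median of −0.10. The other 3 were the growth factors *Tgfb2* (−0.37) and *Tgfb3* (−0.38, or −0.25 without IgG array F22) and the clotting initiator *F3* (−0.37).

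**Figure D3:**
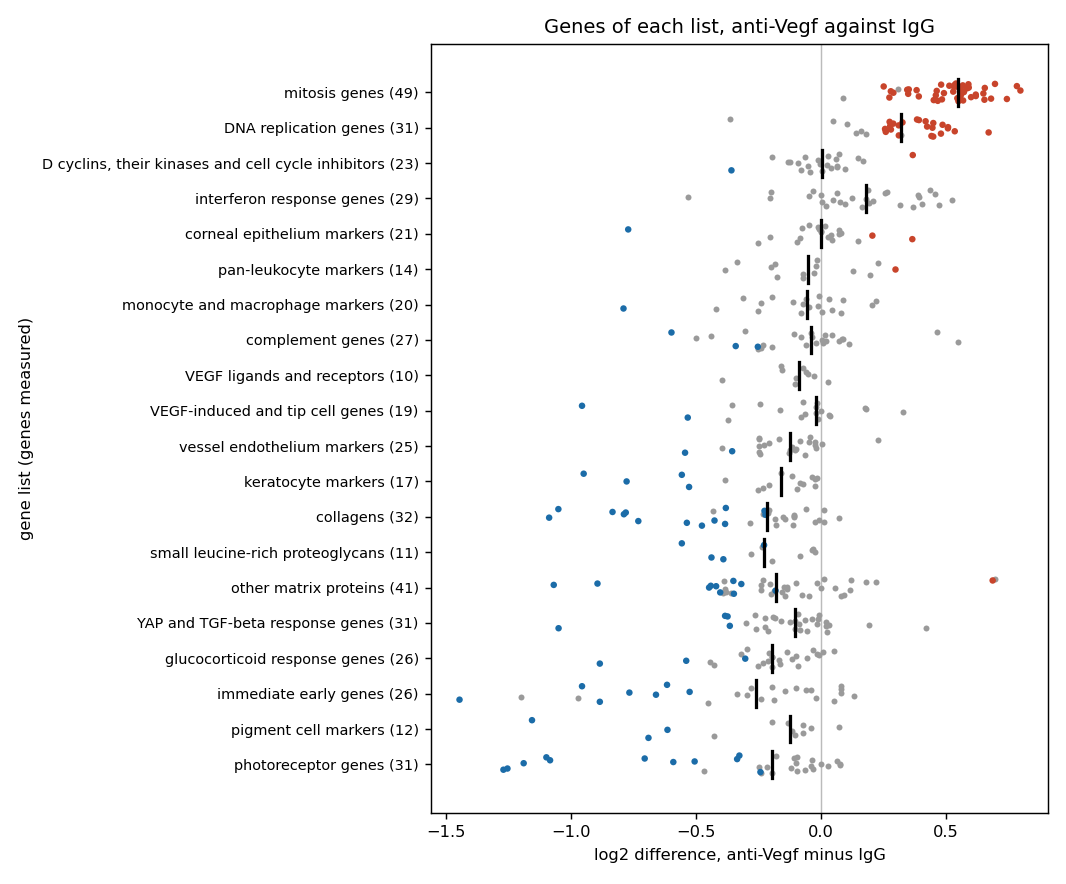
Log2 difference between anti-*Vegf* and IgG (x axis) for the genes of 20 lists (y axis, genes measured in brackets), where each point is a gene, coloured red or blue at an unadjusted p under 0.05, and the bar is the list's median. Median bars run from 0.55 for mitosis genes to −0.26 for immediate early genes, and no gene passed the adjusted test.

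In the *Vegf* family itself no gene reached an unadjusted p of 0.05. The *Vegfa* signal was 9.35, 9.71, 9.58 and 9.45 with anti-*Vegf* and 9.62, 9.61, 9.61 and 9.49 with IgG, in overlapping ranges (log2 difference −0.06, 95% interval −0.52 to 0.40, limma adjusted p = 0.994). Relative to the naïve mean of 7.90, *Vegfa* rose by 1.62 with anti-*Vegf* and by 1.68 with IgG (limma adjusted p = 5.92e-05 and 4.71e-05). Of 10 ligands and receptors, 9 had negative differences (against 7439 of 14217 over all genes) and the median was −0.09. *Kdr*, the main signalling receptor, averaged 7.46 ± 0.54 (SD, n = 4) with anti-*Vegf* and 7.86 ± 0.62 with IgG, with overlapping arrays (difference −0.40, 95% interval −1.07 to 0.28), and −0.01 on its second probe set. Relative to naïve corneas, whose mean was higher at 8.61, *Kdr* differed by −1.15 with anti-*Vegf* (limma adjusted p = 0.0135). With IgG the difference from naïve corneas was −0.75 and did not pass the test (limma adjusted p = 0.0947). Between anti-*Vegf* and IgG the *Kdr* difference was −0.69 without IgG array F17 and −0.23 without array F22. *Flt1*, which traps the ligand, differed by −0.11 and *Vegfc*, the ligand of lymphatic vessels, by −0.07.

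*Angpt2*, a ligand that endothelial cells release when vessels are remodelled, had 4.34, 4.03, 4.31 and 4.33 with anti-*Vegf* and 4.61, 4.75, 5.10 and 4.67 with IgG. The groups did not overlap (log2 difference −0.53, standard error 0.13, limma adjusted p = 0.326), at a low signal. It fell by 0.77 relative to naïve corneas with anti-*Vegf* (limma adjusted p = 4.14e-04), and the difference of −0.24 with IgG did not pass the test (limma adjusted p = 0.196). Among the 19 measured genes that *Vegf* induces or that mark tip cells, *Angpt2* and *Nr4a1* were the 2 that were lower at an unadjusted p under 0.05 (against 2.41% of all genes). The median was −0.02. *Esm1*, a tip cell gene, differed by 0.33, *Apln* by −0.08 and *Dll4* by −0.07. The 25 vessel endothelium markers had 23 negative differences (against 7439 of 14217 over all genes) but a median of −0.12. Of these markers 2 were lower (against 2.41% of all genes), *Emcn* (−0.54, or −0.18 without IgG array F22) and *Erg* (−0.36). Without IgG array F22, which had the highest endothelial mean at 6.64, the median was 0.00. The other 7 arrays lay between 6.04 and 6.28.

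**Figure D4:**
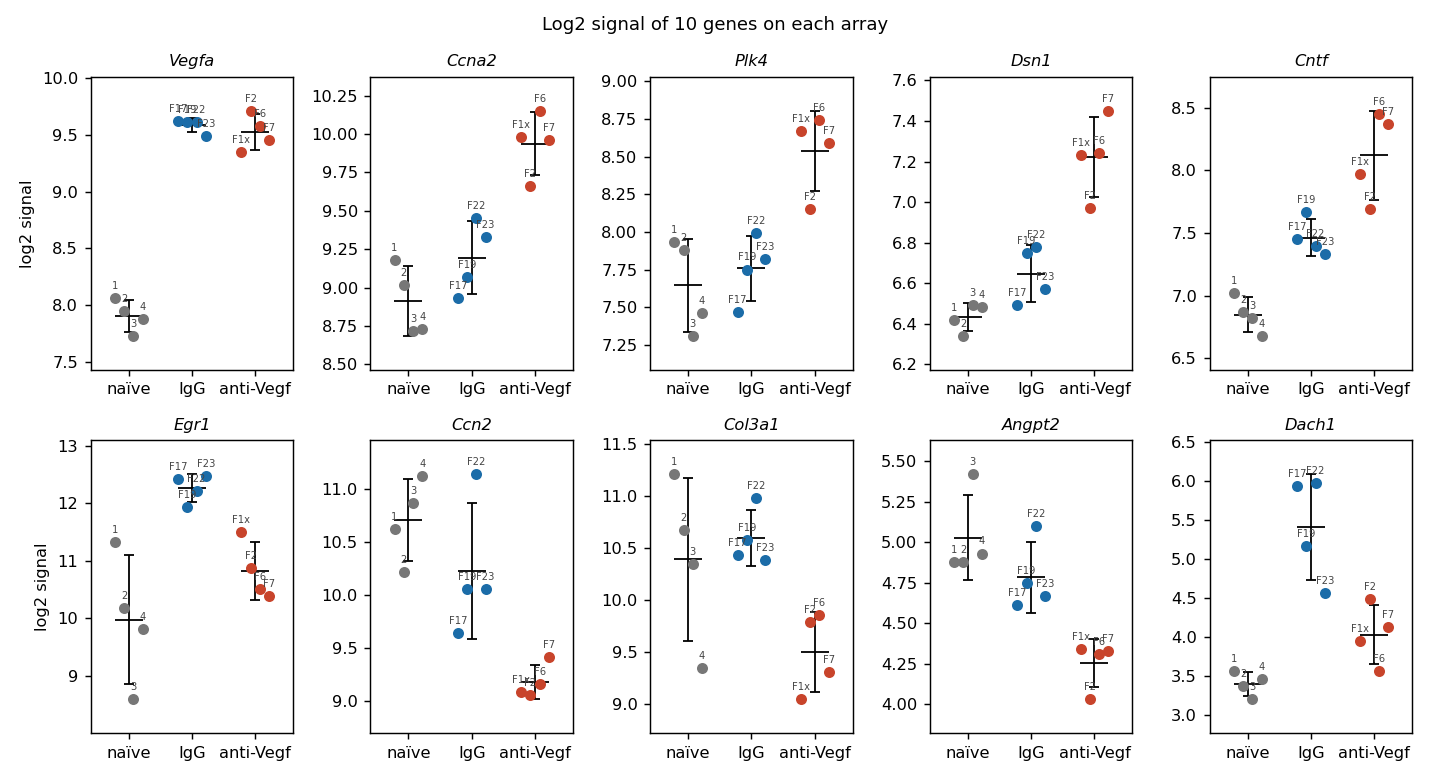
Log2 signal (y axis) of 10 genes on the naïve, IgG and anti-*Vegf* arrays (x axis), with points named by array and bars as mean ± SD (n = 4). *Vegfa* overlaps between IgG and anti-*Vegf* at 9.35 to 9.71. The other 9 genes do not overlap between these groups, and most of them were named by a rule that asks for no overlap. Over all genes 3.45% lay higher and 1.87% lower with anti-*Vegf* without overlap.

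Leukocyte markers and inflammatory genes are given by list, beside 4.21% higher and 2.41% lower over all genes. Of 14 pan-leukocyte markers 1 was higher, *Cytip* (0.30), and none lower, with a median of −0.05. Of 20 monocyte and macrophage markers 1 was lower, *Cd163*, the haemoglobin scavenger receptor (−0.79 with overlapping arrays, or −0.46 without IgG array F22), with a median of −0.06. Among 11 neutrophil markers 1 was lower, *Mmp9*, a gelatinase, at 6.92, 6.28, 5.95 and 7.04 against 7.32, 6.97, 8.96 and 6.63 (difference −0.92, or −0.43 without IgG array F22). Of 21 T and NK cell markers 3 were lower (14.3%) and none higher, with a median of −0.03. *Cd3d*, a chain of the T cell receptor complex, had 4.27, 4.40, 4.40 and 4.37 against 4.73, 4.75, 4.63 and 4.43, without overlap at a low signal (difference −0.27, limma adjusted p = 0.368). *Ncr1*, an activating receptor of NK cells, and *Prf1*, perforin, differed by −0.23 and −0.22 with overlapping arrays. Of 31 chemokine ligands 1 was higher, *Ccl9* (0.85), and 1 lower, *Ccl19* (−0.59, or −0.36 without IgG array F22), both with overlapping arrays. The 29 interferon response genes had a median of 0.18 with 23 positive (against 6778 of 14217 over all genes), but none reached an unadjusted p of 0.05. Arrays F1x and F19 had the highest means of their groups for this list, 9.43 and 9.34. Of 34 cytokines and receptors none was higher or lower.

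Genes that the study treats singly are given here with their values. *C3*, the central complement protein, had 7.61, 7.53, 7.49 and 7.43 with anti-*Vegf* and 8.01, 7.09, 7.74 and 8.16 with IgG (difference −0.23, 95% interval −0.75 to 0.29). Without IgG array F19 the difference was −0.45, and without array F23 −0.10. *C1s*, a protease that starts the classical pathway, differed by −0.34, and *C1r*, its partner, by −0.25, both at an unadjusted p under 0.05 with overlapping arrays (limma adjusted p = 0.862 for each). Of 27 complement genes 3 were lower (against 2.41% of all genes), these and *Masp1*, a protease of the lectin pathway (−0.60, with −0.50 and −0.04 on its other probe sets). The chemokine *Ccl2* had 11.63, 11.54, 11.40 and 11.03 against 10.02, 11.37, 11.37 and 11.84, with a difference of 0.25 that became −0.13 without IgG array F17 and 0.48 without array F23. The gene listed as *Cxcl6*, which carries the synonym *Cxcl5*, differed by −0.41, *Reg3g*, an antimicrobial lectin, by 0.22 (−0.19 without IgG array F23, 0.59 without F17), *Cfi*, a complement inhibitor, by −0.44 (−0.23 without anti-*Vegf* array F1x), and *Serpinb2*, a protease inhibitor, by 0.22 (0.02 without IgG array F17, 0.38 without anti-*Vegf* array F2). Each of these 5, *Ccl2* included, had overlapping arrays, and their limma adjusted p ran from 0.934 to 0.984.

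A few further genes stood out singly. *Dach1*, a transcription factor, had 3.95, 4.48, 3.56 and 4.12 with anti-*Vegf* and 5.94, 5.16, 5.97 and 4.56 with IgG (log2 difference −1.38, standard error 0.25, limma adjusted p = 0.281). The groups did not overlap, although the gap was only 0.08, and naïve and dexamethasone corneas averaged 3.40 and 3.80. Without IgG array F23, the lowest of its group, the difference was −1.66 and limma called it, as the only gene in that fit. *Cntf*, a factor that supports nerve and epithelial cells, had 7.97, 7.69, 8.45 and 8.37 against 7.45, 7.67, 7.40 and 7.33, without overlap (difference 0.66, standard error 0.14, limma adjusted p = 0.326). In the list of 18 genes of LIF, OSM and CNTF signalling it was the one that was higher (against 4.21% of all genes). The feedback inhibitor *Socs3* (−0.60, without overlap) and the receptor *Il11ra1* (−0.33) were lower (against 2.41% of all genes).

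*Defb4*, a defensin of epithelium, differed by 1.64 (standard error 0.48, limma adjusted p = 0.462), with 9.85, 9.77, 10.35 and 9.23 with anti-*Vegf* and 9.71, 7.68, 7.29 and 7.98 with IgG. The overlap came from IgG array F17 alone. *Steap1*, a metalloreductase, had 10.26, 9.72, 10.47 and 10.27 against 9.14, 9.59, 9.60 and 9.33, without overlap (difference 0.76, standard error 0.26). *Krt15*, a keratin of basal limbal epithelium, had 11.21, 12.16, 12.14 and 11.85 against 12.27, 12.49, 12.77 and 12.92, lower with anti-*Vegf* without overlap (difference −0.77, standard error 0.28, limma adjusted p = 0.648).

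Some of the largest negative differences belonged to genes of other tissues of the eye or of blood. *Gnat1*, the transducin of rod photoreceptors, had 6.84, 6.71, 6.19 and 6.28 with anti-*Vegf* and 7.07, 8.78, 7.76 and 7.48 with IgG (log2 difference −1.27, standard error 0.35, limma adjusted p = 0.382). *Tyrp1*, an enzyme of pigment cells, had 5.89, 5.38, 5.92 and 5.77 against 6.65, 7.88, 6.09 and 6.96 (difference −1.16, and −0.34 on its second probe set). Neither gene overlapped between the groups, and IgG array F19 was the highest of the 8 for both. After these values were seen, 31 measured photoreceptor genes and 14 of the retinal pigment epithelium were put in lists. Of the photoreceptor genes 11 were lower (against 2.41% of all genes) and none higher (against 4.21%). The 11 include *Gnat1*, whose value was seen before the list was written. Among the lower ones were the rod genes *Gngt1* (−1.25), *Pdc* (−1.19), *Sag* (−1.10) and *Prph2* (−1.08). The list means were 5.01 to 5.07 on the anti-*Vegf* arrays, 5.12 to 5.68 on the IgG arrays and 4.89 to 5.07 on the naïve arrays. On the dexamethasone arrays the means ran from 5.22 to 5.80. The median difference of the photoreceptor genes was −0.20, or −0.12 without IgG array F19. Over those kept by a filter on dim probe sets it was −0.61. That filter needs at least 4 of the 16 arrays above a log2 signal of 5.94, so it can keep genes through the groups where they are high. *Gngt1* and *Pdc* passed that signal on IgG and dexamethasone arrays and on no anti-*Vegf* or naïve array. The median of the pigment epithelium genes was −0.24, or −0.17 without IgG array F19. Of these 14 genes *Ttr*, *Rgr*, *Rpe65*, *Rlbp1* and *Stra6* were lower (against 2.41% of all genes), with differences of −0.65 to −0.38. *Rdh10* was higher (against 4.21% of all genes) by 0.23, or 0.05 on its second probe set. Without IgG array F19 *Rpe65* differed by −0.20 and *Rgr* by −0.38.

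Of 12 pigment cell markers 3 were lower (against 2.41% of all genes), *Tyrp1*, *Pmel* (−0.61) and *Dct* (−0.69, or −0.44 without IgG array F19), in albino rats that make no melanin but keep the cells. Of 6 red cell markers 2 were lower (against 2.41% of all genes), *Hba-a3* (−0.43) and *Hbb*. The latter, a chain of haemoglobin, lay between 6.29 and 7.51 with anti-*Vegf* and between 7.65 and 9.56 with IgG, highest on array F23 (difference −1.22, or −0.80 without it). These tissues are not part of the labelled cornea, and the part of retinal, pigmented or blood RNA in the other differences was not tested. The mitosis genes had their lowest IgG means on arrays F17 and F19, and their median difference without array F19 was 0.51. For photoreceptor genes every IgG array lay above every anti-*Vegf* array. Leaving out array F19 alone therefore cannot tell what part such RNA has in the mitosis difference.

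**Figure D5:**
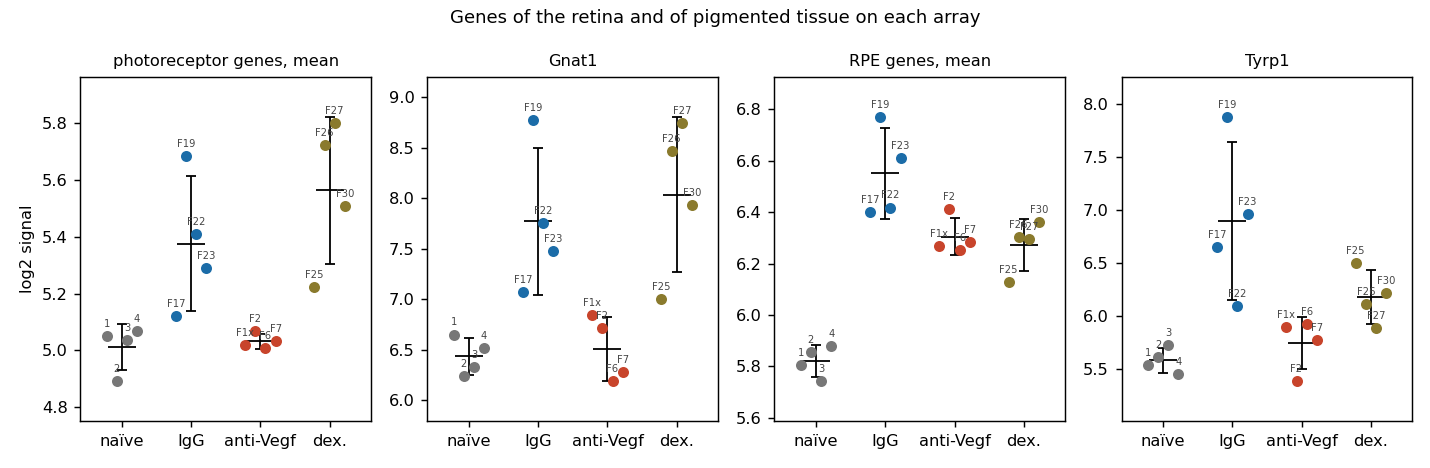
Log2 signal (y axis) of *Gnat1* and *Tyrp1* and the mean log2 signal of 31 photoreceptor and 14 retinal pigment epithelium (RPE) genes on each of the 16 arrays by group (x axis), with points named by array and bars as mean ± SD (n = 4). IgG array F19 has the highest *Tyrp1* at 7.88, and the anti-*Vegf* arrays stay at 5.01 to 5.07 for photoreceptor genes.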

How the data were processed

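RNA of 16 corneas was hybridised to 1 Affymetrix array each, with 4 arrays in each of 4 groups. Per the labels, the authors ran RMA (background correction, quantile normalization and summarisation of probes) in Affymetrix Expression Console, and the deposited table holds the resulting log2 values, 1 for each probe set and array. They were used as deposited. Array medians lay between 6.548 and 6.614, and 0 sample columns were left out. Arrays carry no read depth, and their number limits the precision.

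Of 31099 probe sets, 57 controls were set aside. Of the other 31042, 20826 carry 1 gene symbol, 436 several and 9780 none in the platform annotation. Gene IDs of 20758 were found in RefSeq, and 0 symbols needed an update. Each of 14217 genes was read from its probe set of highest mean signal. Limma 3.58.1 in R 4.3.3 was fitted to all 16 arrays with a mean for each group, leaving 12 residual degrees of freedom, with empirical Bayes moderation and Benjamini-Hochberg adjustment over the 31042 probe sets. The study's methods state limits on a q-value and a fold change but do not name a test. Control probe sets were compared by exact permutation tests.

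The comparison, the 52 gene lists (33 pathway and 19 marker lists) and the rule for named genes were chosen with earlier results of these data known, and 2 lists with their alternatives were added after the values were seen. Lists are described by counts and medians, and no list was tested. Named genes are the 15 largest differences each way among genes at an unadjusted p under 0.05 without overlap, the 10 smallest p, up to 5 genes per list and its gene of highest signal, and the genes the study treats singly. Others, among them *Kdr*, *Cdc20*, *Ccnb2*, *Mcm2*, *Jun*, *Fos*, *Fosb*, *Lum*, *Uhrf1*, *Zfp36*, *Cdkn1a*, *Cdkn1b*, *Flt1*, *Vegfc*, *Apln*, *Dll4*, *Spp1*, *Esm1*, *Ccnf* and *Knstrn*, were chosen after their values were seen.

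Alternatives were an ordinary linear model, array weights, robust moderation along a mean-variance trend, the 8 arrays alone, cyclic loess, median centring, centring on reference genes (5 of 10 measured), removal of probe sets not above the 40th percentile on at least 4 arrays, the mean or the most variable probe set of a gene, other adjustments (including Storey's q-value with lambda 0.5) and leaving out each of the 8 arrays. The methods state 1 array for each cornea, kept when its RNA quality passed a limit. Plots were drawn with matplotlib and tables handled with pandas in Python. Array scans, qPCR and immunostaining were not analysed here.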

Additional observations from a re-analysis of the deposited data

Results flagged for a closer look

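In a group of 4 arrays, 1 array can lie far from the other 3. Of 136 groups of 4 looked at (41 genes, 23 lists and 4 control measures in each treatment), 10 held such an array, and chance alone marks about 1 group in 20.

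Among genes, *Vegfa* was 9.49 on IgG array F23 against 9.61 to 9.62 on the other IgG arrays, a small distance in a tight group. *Asf1b* was 7.36 on IgG array F22 against 7.10 to 7.12. *Angpt2* was 4.03 on anti-*Vegf* array F2 against 4.31 to 4.34, and *Socs3* was 9.42 on IgG array F23 against 8.90 to 8.98.

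Among list means, DNA replication genes were 8.40 on anti-*Vegf* array F2 against 8.68 to 8.74, and immediate early genes 9.73 on anti-*Vegf* array F1x against 9.30 to 9.36. On IgG array F17 the keratocyte markers were at 9.89 against 10.23 to 10.28, and the corneal epithelium markers at 12.00 against 11.83 to 11.84. Within the IgG group this array was thus low for keratocyte and high for epithelium markers. The keratocyte means of anti-*Vegf* arrays F6 and F7 were lower still, 9.56 and 9.78. Glucocorticoid response genes were 9.47 on IgG array F23 against 9.15 to 9.21. The hybridization controls were 10.98 on anti-*Vegf* array F6 against 10.81 to 10.83.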

How the results depend on the processing

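No setting other than leaving out single arrays called a gene: leaving out each array gave 0 to 2 called genes, *Asf1b* and *Dsn1* without anti-*Vegf* array F2 and *Dach1* without IgG array F23. Genes higher at an unadjusted p under 0.05 numbered 906 with array weights and 224 with reference genes, and 441 to 708 with arrays left out. Genes lower numbered 586 and 1312 with these settings and 248 to 519 with arrays left out, with the most without anti-*Vegf* array F1x. The cause of these shifts was not tested. Immediate early genes lower numbered 6 to 11 with arrays left out. The other counts and the medians of the mitosis, DNA replication, collagen and immediate early lists stayed within 1.5 times the count or within the spread between arrays. *Krt12*, at a difference near 0, changed sign with median centring (0.013) and without anti-*Vegf* array F6 (0.012), IgG array F19 (0.008) or F22 (0.004), and ran from −0.013 to 0.012 with arrays left out. *Ccl2* ran from −0.125 (without IgG array F17) to 0.482 and *Reg3g* from −0.187 (without IgG array F23) to 0.585. Of 533 values of 41 genes under the alternatives, 524 kept direction and side of the limit, 3 newly passed it and 6 changed sign. Of 285 list medians 3 moved beyond the spread between arrays, those of D cyclins with reference genes and of complement genes and photoreceptor genes (to −0.606) with the filter on dim probe sets. That filter can keep genes through the groups where they are high. No paired analysis was possible because the array labels of the groups share no replicate numbers. With 4 arrays a group, differences under about 0.229 on the log2 scale could not be told from 0 for a typical gene, even without adjustment. This value is the median distance from a difference to the end of its unadjusted 95% interval. The adjusted test asks for more: *Dach1*, at −1.38, was not called (limma adjusted p = 0.281).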
